A study of Homo sapiens with 5 samples.

Results

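Isolated p53 regions are places in the genome with a p53 peak in VCaP cells and no other listed p53 region close by. They were chosen on the positions of the p53 peaks alone. Overlapping peaks (1 bp or more) of the 2 p53 peak lists were merged into 328 p53 regions, and a region was kept when no other p53 region lay within 100 kb on its chromosome. This left 238 isolated regions of 328, and the other 90 are called grouped. The peaks came from chromatin immunoprecipitation followed by sequencing (ChIP-seq), which recovers the DNA fragments that a protein is bound to. All samples were VCaP cells without treatment. VCaP is an established cell line from human prostate cancer, with the TMPRSS2-ERG fusion and mutant p53. p53 was precipitated in 2 samples with the antibody DO-1 (sc-126) and ERG in 2 samples with the antibody ab92513, while the fifth sample was input chromatin, for which no peak list was used here. The p53 lists held 227 peaks in replicate 1 and 138 in replicate 2, and the ERG lists held 14337 and 11237. The lists carry positions without read counts or scores, and neither signal tracks nor sequencing depth were used here. VCaP is 1 cell line, and nothing in the labels says whether the replicates came from separate cultures.

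p53 is a tumor suppressor and transcription factor that binds DNA through a central domain, and most cancer mutations of p53 fall in that domain. Mutant p53 often binds its normal response elements poorly and can be found on chromatin together with other transcription factors. ERG belongs to the ETS family, whose members bind a short GGAA core, and the TMPRSS2 fusion places it under androgen control in prostate cells. For this reason the isolated regions were compared with the 9366 shared ERG regions, meaning merged ERG regions with a peak in both ERG lists.

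The sequences that place isolated regions at genes are shown first. Positions in the lists are hg19, for which no genome or annotation was used here. The study lists 25-base sequences with hg19 positions as relatives of the mutant p53 binding sequence in the promoter of CTNNB1, the gene of β-catenin. These sequences were picked by the study from p53 data of these cells, so their presence is no independent evidence of p53 binding. Only isolated regions were searched for these sequences, so whether holding one is particular to isolated regions was not tested. Of 415 such sequences read from a table that is shortened in part, 12 lay inside an isolated region, 1 in each of 12 regions. Each was matched letter for letter to GRCh38 and to the RefSeq promoter table (GRCh38.p14, 250 bases before to 50 bases after a gene's start), which gives a gene without converting a position. The CTNNB1 sequence comes first below, and capitals in the others mark bases identical to it at the same place. The sign gives the strand as listed, and each sequence is written 5′ to 3′.
CTNNB1, chr3:41240800-41240824 (+): gtgcccaggcaccccaccccggccc
ARHGEF12, chr11:120207066-120207090 (+): GccCCCAcGgcCgCCggCCtcctCC
PPP1CC, chr12:111180786-111180810 (-): GccCCCtccCgCgCCcCCtatGgCC
ATL3, chr11:63439026-63439050 (-): GcGCtttccCgCCCCgCCtCGcCta
VPS51, chr11:64863666-64863690 (+): GcctCCtccCcgtCCcCttCctttC
NSFL1C, chr20:1447521-1447545 (+): GccCCgctGCcgCgttCCgCttgCC
PIGW and MYO19, chr17:34890815-34890839 (-): ccaCgtgcGCgCCCCgCgCCGcgag
CD276, chr15:73976528-73976552 (-): cccCgCcccCgCCCCgCCCCGcCCC
CALM3, chr19:47104271-47104295 (+): GcaCCgccGagCtgtgCCCCtcCgC
PMF1, chr1:156186430-156186454 (-): GccgCCttcCcCgCCgCCCCcGggt
MYO1D, chr17:31149611-31149635 (+): GccgCgccGagCCgggCCCgtGgCC
FAM174B, chr15:93352585-93352609 (-): tgtCCCtccgggCCggCCaCGtggC
X intergenic, chrX:108297663-108297687 (+): GaGgCCcccggCgCCcCCCgGtgtC

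The 12 sequences were rich in C, with 11 to 21 C of 25 bases (median 13.5). They were picked by the study for likeness to the CTNNB1 sequence, itself rich in C, so this follows in part from the choice. They were identical to the CTNNB1 sequence at 9 to 15 of 25 bases when compared place by place with no gap, and the highest number belonged to the sequence at CD276, which is a run of C broken by single G bases. The study listed sequences by a minimum of matched bases that most of these counts do not reach, and how it counted matches is not given in the sources used here. Of the 12 sequences, 9 had 1 match in GRCh38. Promoters of the table held 7 of them, at ATL3, VPS51, ARHGEF12, PPP1CC, CD276, NSFL1C and the divergent pair MYO19 and PIGW. The sequence at CALM3, a calmodulin gene, lay 304 bp before the gene's start and so outside the window of the table. The sequence on X lay between protein-coding genes, and the nearest start of such a gene, that of IRS4, was 317882 bp away. The sequence at FAM174B lay in an intron.

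Of the 12 sequences, 3 occurred more than once in GRCh38. The sequence at CD276, an immune checkpoint gene of the B7 family, had 10 matches, of which 1 was on chromosome 15, and another lay in the promoter of CBLB, a ubiquitin ligase gene on chromosome 3. The sequence in the PMF1 intron had 5 matches, 1 on chromosome 1 and the other 4 on chromosome 21, each 6349 to 6378 bp from a gene of 5.8S ribosomal RNA. The sequence in the MYO1D intron had 4 matches, 1 on chromosome 17 and the other 3 on chromosome 21, 6482 to 6501 bp from such a gene. Ribosomal RNA genes stand in many near-identical copies. Reads from these 25 bases alone cannot tell the copies apart, and whether reads of ribosomal DNA entered the peaks at PMF1 and MYO1D was not tested.

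Of the 12 regions with a listed sequence, 11 overlapped a shared ERG region and 1, at NSFL1C, overlapped a peak of ERG replicate 1 alone. Over all 328 p53 regions the share at a shared ERG region was 40.5%, and over the 238 isolated regions 39.1%. The 12 were found through a list the study picked, so their count was not tested. By p53 list, 7 came from replicate 1 alone, 3 from replicate 2 alone and 2 from both. The region at ARHGEF12, which encodes an activator of the small GTPase RhoA, stood in both p53 lists, with a 389 bp peak in replicate 1 and a 244 bp peak in replicate 2. These peaks shared 147 bp, 37.8% of the replicate 1 peak, so the region was not in both lists where a reciprocal overlap of 50% was asked. It lay at chr11:120206768-120207253, and its listed sequence was 44 bp before the ARHGEF12 start (GRCh38 11:120336357-120336381). PPP1CC, the γ catalytic subunit of protein phosphatase 1, had a 430 bp peak at chr12:111180560-111180989 in replicate 1 alone. VPS51, a subunit of complexes that tether vesicles to the Golgi and endosomes, had a 222 bp peak at chr11:64863505-64863726 in replicate 1 alone. ATL3, an atlastin that shapes the endoplasmic reticulum, had a 217 bp peak at chr11:63438969-63439185, also in replicate 1 alone. In replicate 2 alone stood the 221 bp region at chr17:34890656-34890876, where MYO19, a motor protein of mitochondria, and PIGW, an enzyme of glycosylphosphatidylinositol anchor synthesis, start in opposite directions. It lay over a shared ERG region but touched the ERG replicate 2 peak of that region only.

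An isolated region also stood beside the CTNNB1 sequence itself. It was singled out after its position was seen, since the sequence is not inside it. The region lay at chr3:41240869-41241089, was 221 bp wide and came from p53 replicate 1 alone. The nearest other p53 region was 614395 bp away. The CTNNB1 sequence ended 44 bp before it and was covered by 0 p53 peaks of either list, while 1 peak of each ERG list covered it. The same isolated region overlapped ERG peaks of 937 bp in replicate 1 and 1053 bp in replicate 2, and its midpoint was 45 bp from that of the shared ERG region. At CTNNB1 the peak lists thus held ERG in both replicates and p53 in 1 of 2, next to the listed sequence. These p53 lists are shorter than the peak sets the study describes, so a peak missing from replicate 2 does not show that p53 was absent. The study itself reports a mutant p53 ChIP-seq peak at this promoter in VCaP cells, and p53 there by ChIP with quantitative PCR. By sequential ChIP it reports p53 and ERG at the same region of the promoter. It also reports binding to this sequence in vitro, and lower CTNNB1 expression in DU145 cells after the sequence was deleted.

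The promoters of CTNNB1, ARHGEF12 and VPS51 are shown because they carry the listed sequence at the isolated region of the study's central gene, at a region of both p53 lists, and beside an ETS motif. They are 300 bases long, on the gene's strand, from RefSeq on GRCh38.p14 at 3:41199255-41199554 (+), 11:120336163-120336462 (+) and 11:65095964-65096263 (+). Capitals mark the listed 25-base sequence.
CTNNB1: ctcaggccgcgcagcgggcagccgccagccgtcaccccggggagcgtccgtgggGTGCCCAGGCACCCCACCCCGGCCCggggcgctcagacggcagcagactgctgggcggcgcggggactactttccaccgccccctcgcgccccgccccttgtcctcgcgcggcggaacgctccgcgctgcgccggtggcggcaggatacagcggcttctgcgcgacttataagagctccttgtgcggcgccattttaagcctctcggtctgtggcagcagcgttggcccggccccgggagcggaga
ARHGEF12: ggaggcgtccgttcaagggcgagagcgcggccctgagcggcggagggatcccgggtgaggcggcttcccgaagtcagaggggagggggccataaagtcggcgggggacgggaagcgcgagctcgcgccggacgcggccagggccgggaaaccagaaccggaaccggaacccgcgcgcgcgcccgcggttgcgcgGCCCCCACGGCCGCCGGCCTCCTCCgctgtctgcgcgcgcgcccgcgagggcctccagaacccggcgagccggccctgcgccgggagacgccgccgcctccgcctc
VPS51: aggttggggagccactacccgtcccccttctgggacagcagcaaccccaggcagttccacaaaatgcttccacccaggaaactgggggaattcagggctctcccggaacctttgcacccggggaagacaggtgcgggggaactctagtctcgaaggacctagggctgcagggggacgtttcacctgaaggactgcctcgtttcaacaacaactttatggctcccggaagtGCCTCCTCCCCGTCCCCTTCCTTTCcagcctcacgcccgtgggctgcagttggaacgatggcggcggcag

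The promoters that hold a listed sequence from inside an isolated region were rich in G and C, at 61.3% in VPS51 to 80.3% in CD276, beside a median of 58.7% over all 35116 promoters of the table. The CTNNB1 promoter stood at 74%. All were chosen for holding a listed sequence, which is itself rich in C, so a high share follows in part from the choice. The letters CCGGAAGT, a strong ETS motif searched on both strands, were found in the VPS51 promoter among these, and 4.14% of all promoters hold them. In VPS51 the motif started at base 223 and ended directly before the listed sequence, which began at base 231. The bare core GGAA or TTCC stands in 95.5% of all promoters and so separates few of them. The p53 half-site (3 purines, C, 2 bases A or T, G, 3 pyrimidines, both strands being the same pattern) was in 0 of these promoters and in 6.63% of all promoters. A match is a run of letters, and these windows do not cover the whole of the peaks.

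Most isolated regions came from 1 p53 list. Replicate 1 alone gave 162 of 238 (68.1%), replicate 2 alone 68 (28.6%) and both lists 8. The share in both lists was 3.36% (95% Wilson interval 1.71% to 6.49%), beside 11.3% over all 328 p53 regions and 32.2% (23.5% to 42.4%) over the 90 grouped ones. These shares rest on the p53 positions that chose the members, so they are given as a description. The isolated regions took up 74.9% (68.9% to 80.1%) of the replicate 1 peaks, 170 of 227, and 55.1% (46.8% to 63.1%) of the replicate 2 peaks, 76 of 138. Intervals here cover counting error only.

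**Figure D1:**
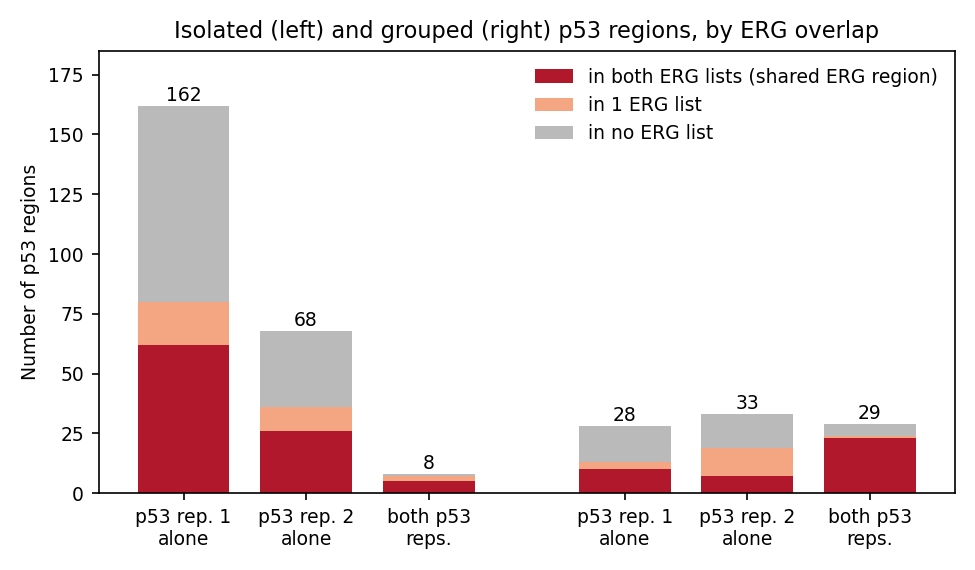
Number of p53 regions (y axis) by p53 list, for isolated regions (3 bars at the left: 162, 68 and 8) and grouped regions (3 bars at the right: 28, 33 and 29). Colors split each bar by overlap with both ERG lists, 1 ERG list or none, and 62, 26 and 5 of the isolated regions were at a shared ERG region.

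The 8 isolated regions of both p53 lists are described by place. Of these, 4 lay at or near a gene's start, namely ARHGEF12, described above, and regions at DRAP1, PSMD11 and DHRS13. For DRAP1, PSMD11 and DHRS13 the listed sequence was outside the region and was looked up after the positions were seen. The share of other p53 regions at gene starts was not counted, so whether such places are particular to these 8 was not tested. DRAP1 encodes a corepressor that acts with DR1 on the basal transcription machinery, and its region, chr11:65686649-65686931, stood 178 bp from a sequence in a DRAP1 intron, 225 bp after the gene's start. PSMD11 encodes a subunit of the proteasome's regulatory particle, and its region, chr17:30771243-30771574, stood 170 bp from a sequence 229 bp after the PSMD11 start. DHRS13 belongs to the short-chain dehydrogenases, and the region chr17:27229957-27230266 began directly after a sequence in its coding exon, 153 bp from the gene's start. The fifth region, chr1:156186291-156186573, was the one in the PMF1 intron whose sequence recurs near ribosomal RNA genes.

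The other 3 regions of both lists lay near chromosome ends. One, 1656 bp wide, was at chr5:10125-11780. The remaining pair was at chrX:185034-187201, 2168 bp wide, and at chrY:135047-136606, 1560 bp wide. In hg19 this stretch belongs to the first pseudoautosomal region, where X and Y carry the same sequence at positions that differ by 50000 bp. After that offset the Y region lay wholly within the X region, with an overlap of 1560 bp and starts 13 bp apart, so the pair is 1 stretch of sequence listed at 2 places. Counted once, the isolated regions numbered 237, of which 7 were in both p53 lists.

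By ERG, 5 of these 8 regions overlapped a shared ERG region, namely those at PMF1, chromosome 5, DRAP1, ARHGEF12 and PSMD11, beside 28 of all 37 p53 regions of both lists (75.7%). The X and Y regions overlapped peaks of ERG replicate 2 alone, of 902 bp and 1053 bp. The DHRS13 region met no ERG peak of either list, with a shared ERG region 191 bp away. With a reciprocal overlap of 50% between the replicate peaks, 4 of the 8 remained in both lists, those at PMF1, chromosome 5, DRAP1 and DHRS13, and those at ARHGEF12, PSMD11, X and Y did not. The peaks of the 4 gene starts were 224 to 389 bp wide in replicate 1 and 198 to 256 bp in replicate 2. The median over all isolated peaks was 220.5 bp in replicate 1 and 253.5 bp in replicate 2.

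The next comparison asked how often an isolated p53 region lay where ERG was found in both replicates. Of the 238 isolated regions, 93 overlapped a shared ERG region, which is 39.1% (33.1% to 45.4%), beside 40.5% of all 328 p53 regions. A further 30 (12.6%) overlapped a peak of 1 ERG list only, 21 in ERG replicate 1 and 9 in ERG replicate 2, and 115 (48.3%) met no ERG peak. Of the 93, 88 touched a peak of each ERG list and 5 touched the peak of 1 list in a shared region. With a peak of either ERG list the number was 123 (51.7%, 45.4% to 58.0%), beside 54.6% of all p53 regions. ERG replicate 1 met 113 isolated regions (47.5%) and the shorter ERG replicate 2 met 98 (41.2%). For scale, shared ERG regions covered 4.57 Mb, or 0.152% of the 3001.6 Mb between the outermost peaks of the lists. The share of isolated regions at ERG was thus close to the share of all p53 regions, of which they make up the greater number.

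No difference in this share was detected between the p53 replicates. Of the regions of replicate 1 alone, 62 of 162 (38.3%, 31.1% to 46.0%) were at a shared ERG region, and of replicate 2 alone 26 of 68 (38.2%, 27.6% to 50.1%). The odds ratio was 1.00 (Fisher's exact test, two-sided, p = 1, adjusted p = 1 over 4 tests by Benjamini-Hochberg). The 5 of 8 regions of both lists (62.5%, 30.6% to 86.3%) stand beside 28 of 37 over all p53 regions of both lists (75.7%, 59.9% to 86.6%) and 23 of 29 grouped ones (79.3%, 61.6% to 90.2%), with wide intervals that overlap. Regions are not replicates, and these tests describe the lists and not other cultures of the cells.

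Isolated and grouped regions were set side by side within the regions of 1 p53 list, since grouped regions stood in both lists more often. At a shared ERG region were 88 of 230 isolated regions (38.3%, 32.2% to 44.7%) and 17 of 61 grouped regions (27.9%, 18.2% to 40.2%). The difference did not pass the test (odds ratio 1.60, Fisher's exact test, p = 0.1767, adjusted p = 0.6928). Its direction turned when all peaks of ERG replicate 2 were taken in place of shared regions, with an odds ratio of 0.677, and the odds ratio was 2.12 with the peaks of ERG replicate 1 alone. Grouped regions in 1 ERG list only were mostly in ERG replicate 2, with 15 in that list and 1 in ERG replicate 1, while isolated ones stood at 9 and 21.

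No difference in ERG overlap between wider and narrower isolated peaks passed the test. Regions of replicate 1 alone had a median width of 218.5 bp (183 to 501 bp), with 221 bp at shared ERG, 222 bp at 1 ERG list and 216.5 bp at none. Regions of replicate 2 alone were wider, at 254.5 bp (195 to 910 bp), with 246 bp, 308.5 bp and 252.5 bp in the same order. The 8 regions of both lists had a median of 409 bp (283 to 2168 bp). Among the 170 isolated replicate 1 peaks, 37 of 85 at or above the median of 220.5 bp were at shared ERG (43.5%) against 30 of 85 narrower ones (35.3%). The odds ratio was 1.41 (two-sided Fisher's exact test, p = 0.3464, adjusted p = 0.6928). In replicate 2 the order was the other way, with 14 of 38 peaks at or above 253.5 bp (36.8%) against 17 of 38 narrower ones (44.7%). The odds ratio was 0.721 (two-sided Fisher's exact test, p = 0.641, adjusted p = 0.8547). This order turned at an isolation distance of 500 kb (1.42), without ERG replicate 2 (1.11) and with either ERG list (1.11).

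**Figure D2:**
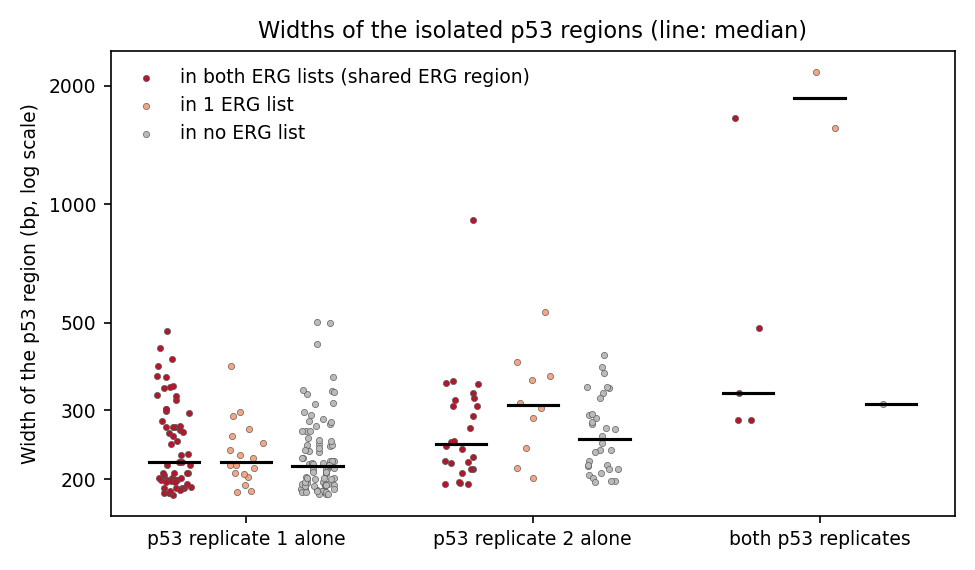
Width of each isolated p53 region in bp on a log scale (y axis) by p53 list and, in color, by ERG overlap, with a line at the median of each set. The 3 sets of replicate 1 alone overlap one another throughout, with medians of 221, 222 and 216.5 bp, and 3 regions of both p53 lists stand above 1000 bp.

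The widest isolated regions stood on either side of the ERG split. In replicate 1 alone the widest at a shared ERG region was chr1:154973257-154973732 (476 bp), and the widest with no ERG peak was chr7:56440254-56440754 (501 bp). In replicate 2 alone they were chr4:68265580-68266489 (910 bp) and chr11:129685637-129686050 (414 bp). Among the 5 widest at shared ERG in each list were the regions of PPP1CC in replicate 1 and of CALM3 in replicate 2. Of the 5 widest replicate 1 regions with no ERG peak, 3 lay on chromosome 7.

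Where p53 and ERG met, they lay close together. Of the 93 isolated regions at ERG, 69 (74.2%, 64.5% to 82.0%) were wholly inside 1 shared ERG region. The midpoints were a median of 91 bp apart (quartiles 39 and 172.5 bp, highest 628 bp), and 50 of 93 (53.8%) were within 100 bp. The offset was 90.5 bp in replicate 1 alone and 102.2 bp in replicate 2 alone, and in the 5 regions of both p53 lists it was 15.5 to 62.5 bp. A short p53 region inside an ERG region cannot lie far from its midpoint, so these offsets are bounded by the widths. Grouped regions were not measured in this way, so whether the closeness is particular to isolated regions was not tested.

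The ERG regions under isolated p53 regions were wide ones. Their median width was 602 bp, beside 438 bp over all shared ERG regions. With the shared ERG regions split by width into 5 classes of equal size, isolated p53 regions met 5, 8, 12, 22 and 46 of them from the narrowest to the widest class, or 0.267% to 2.46% of a class. The widest class, 618 to 2048 bp, held 49.5% of the ERG regions met and 33.2% of the base pairs in shared ERG regions, and the narrowest class held 5.38% and 11.7%. Grouped p53 regions met 4, 5, 12, 5 and 13 in the same order, with a median ERG width of 467 bp. Peak calls widen with signal and with depth, and what the width stands for was not tested.

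**Figure D3:**
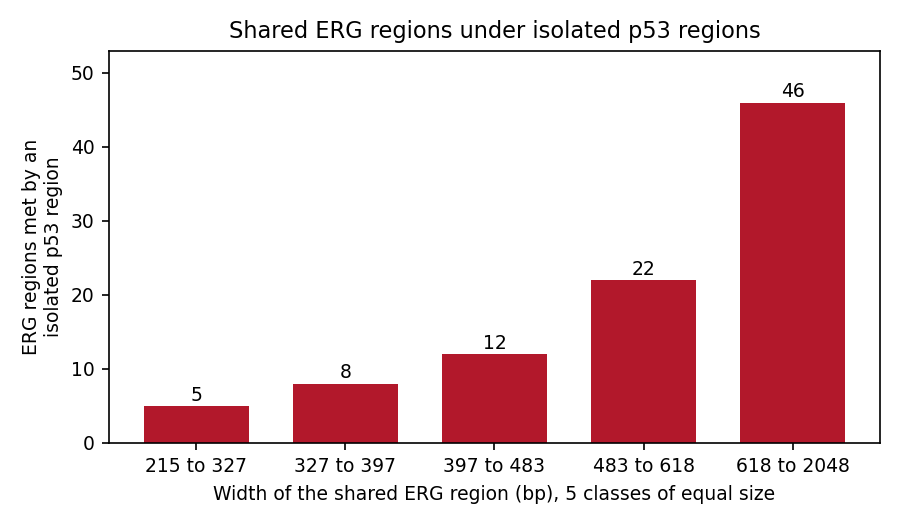
Number of shared ERG regions that an isolated p53 region overlapped (y axis) by width class of the ERG region in bp (x axis, 5 classes of equal size). The number rose from 5 in the narrowest class to 46 in the widest.

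Away from ERG, the isolated regions spread over a wide range of distances. The 145 isolated regions that overlapped no shared ERG region lay a median of 139720 bp from the nearest one. Of these, 3 were within 1 kb, 12 at 1 to 10 kb, 52 at 10 to 100 kb, 61 at 100 kb to 1 Mb and 17 beyond 1 Mb, up to 5089597 bp. Regions of replicate 1 alone (n = 100) had a median of 77339 bp and those of replicate 2 alone (n = 42) one of 272414.5 bp. No test was made of this difference. The 50 grouped regions off shared ERG had a median of 13340 bp, and grouped regions share neighborhoods by their definition.

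**Figure D4:**
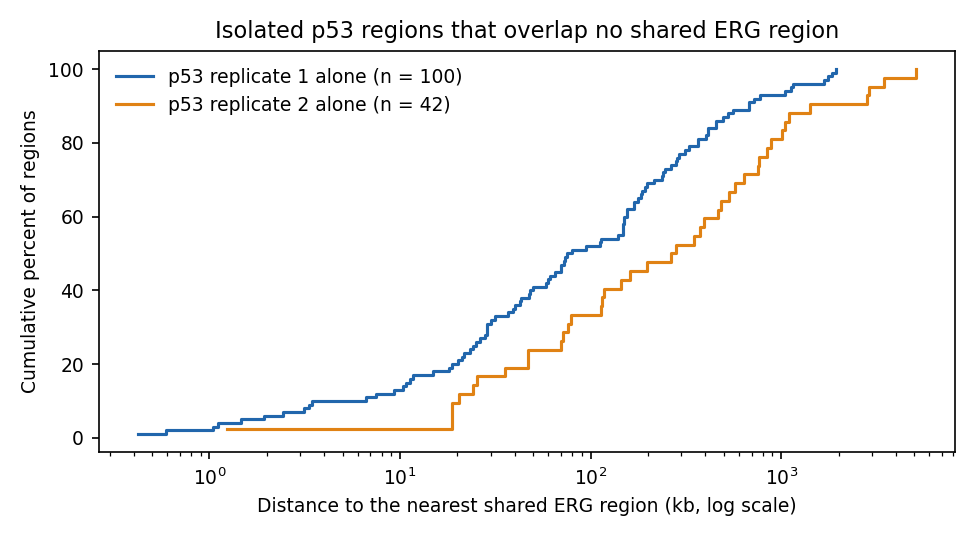
Cumulative percent (y axis) of the isolated p53 regions that overlap no shared ERG region, by distance to the nearest shared ERG region in kb on a log scale (x axis), for p53 replicate 1 alone (n = 100) and replicate 2 alone (n = 42). The replicate 2 curve lies to the right, with a median of 272414.5 bp against 77339 bp.

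The number of ERG regions in the wider neighborhood was counted too. Around isolated regions at shared ERG, a median of 7 other shared ERG regions (quartiles 4 and 12) lay within 500 kb, and 1 of 93 regions had none. Around the 115 with no ERG peak the median was 3, and 22 (19.1%) had none. Around all shared ERG regions the median was 5, and 4.68% had none. A region at ERG lies where ERG regions are by definition, so these values are given with no test. The richest neighborhoods were on chromosome 11, around chr11:65190234-65190527 with 39 other shared ERG regions, the DRAP1 region with 37 and chr11:63753852-63754042 with 36. The last stood 316 bp from a listed sequence in an exon of OTUB1, a deubiquitinase gene. Isolated here thus means far from other p53 regions of these lists, not far from ERG. The study describes larger p53 peak sets, and whether these regions have p53 neighbors there was not tested.

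Isolated regions stood on all 24 chromosomes, with 3 to 18 on each. Chromosomes 1, 2 and 11 had 18 each and chromosome 17 had 17. On chromosome 1, 13 of 18 were at a shared ERG region (72.2%) and on chromosome 17, 11 of 17 (64.7%), while on chromosome 7 it was 3 of 16 (18.8%). On chromosomes 16, 18 and Y it was 0 of 3, 0 of 5 and 0 of 5. These numbers are small, and chromosomes also differed in ERG, with 878 shared ERG regions on chromosome 1 and 13 on Y. Y held 2.1% of the isolated regions and 0.139% of the shared ERG regions. The Y regions include chrY:135047-136606, a pseudoautosomal stretch that is also listed on X. Whether the other Y regions lie in sequence shared with X was not checked, so the share on Y is not one of Y-specific sequence. Chromosomes 3, 5, 6, 9, 12, 14, 15, X and Y had isolated p53 regions only.

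**Figure D5:**
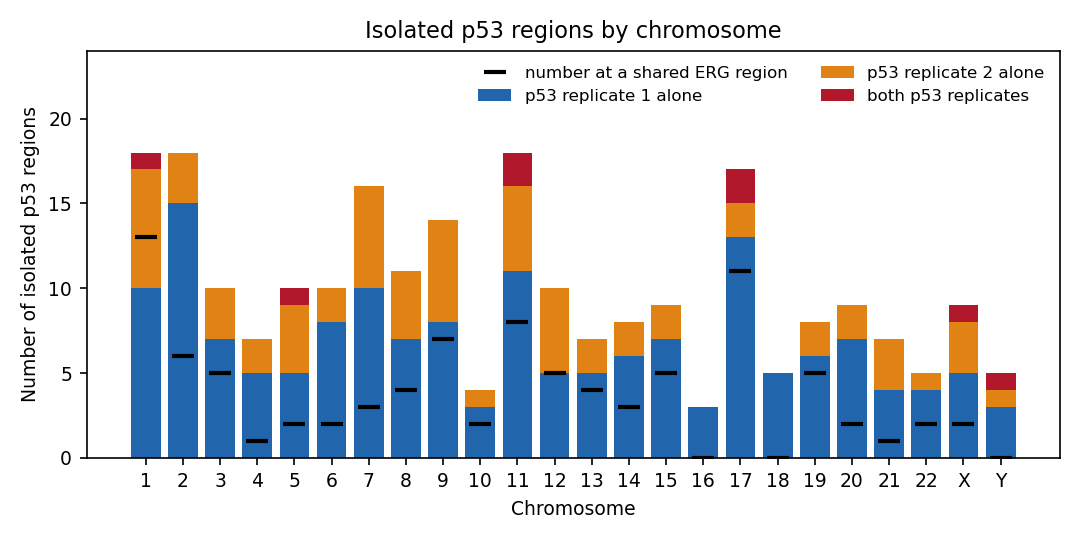
Number of isolated p53 regions on each chromosome (y axis), with bar colors for p53 replicate 1 alone, replicate 2 alone and both, and a black dash at the number that overlap a shared ERG region. The dash stands at 13 of 18 on chromosome 1 and at 3 of 16 on chromosome 7.

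The limit of 100 kb fell in a sparse part of the distances. The isolated regions lay 114027 bp to 63643652 bp from the nearest other p53 region, with a median of 3673867 bp. Unassembled stretches and repeats of the genome were not taken out of these distances. In 171 of 238 (71.8%) this distance was over 1 Mb, and in 15 it was under 200 kb. Just inside the limit stood chr20:26304187-26304530 at 114027 bp, chr21:11011909-11012158 at 131510 bp and the pair chr7:148844239-148844551 and chr7:148983046-148983319 at 138494 bp. Just outside stood a pair on chromosome 11, chr11:118306873-118307207 and chr11:118401774-118402018, at 94566 bp, and a pair at one end of chromosome 18, at 97665 bp.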

How the data were processed

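VCaP cells were profiled by ChIP-seq in 2 ERG and 2 p53 samples per the labels. The submitters' processing notes name CASAVA 1.4, Bowtie2 2.3.3.1, MACS2 and the build hg19, and the authors called peaks on each sample apart. The methods of the study name both builds. At GRCh38 chromosome lengths 164, 131, 7 and 2 peaks of ERG replicates 1 and 2 and p53 replicates 1 and 2 would end past a chromosome, so the positions are not GRCh38. Each of the 4 deposited lists gives chromosome, start, end and a peak name. No signal, score or p-value of a peak was used here. The p53 lists are shorter than the peak sets the study describes, and the filter that made them is not given in the sources used here. Isolation and presence in 1 or both p53 lists therefore hold for these lists only.

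Peaks were merged at 1 bp of overlap. Shares have 95% Wilson intervals. The 4 comparisons of shares used a two-sided Fisher's exact test, and their p-values were adjusted by the Benjamini-Hochberg method. The merging, the isolation rule and the overlap were checked on simulated regions with known answers. The test and its adjustment were checked on fixed values with known answers. Regions were named by position: those of both p53 lists, the 5 widest per p53 list with and without ERG, those holding a listed sequence, those at the 100 kb limit and the 3 with most ERG nearby. Genes of sequences in GRCh38 were taken from GENCODE v44 and RefSeq, and positions were not converted between builds. Apart from ribosomal RNA genes, those of GENCODE were protein-coding only, and distances to a start used the transcript marked as canonical. The members and lists were chosen with earlier results of these data known. Alternatives were distances of 50 and 500 kb, single lists, either ERG list, 50% coverage and midpoints. Python 3.11.15, numpy 2.4.6, scipy 1.17.1 and matplotlib 3.10.9 were used.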

Additional observations from a re-analysis of the deposited data

How the results depend on the processing

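Of 19 alternatives for counts, 15 stayed within 1.5 times the reported count. The number of isolated regions in both p53 lists was 5 with a distance of 500 kb and 4 with a reciprocal overlap of 50%, which joins fewer peaks and leaves out ARHGEF12 and PSMD11. With 1 p53 list the isolated regions numbered 85 without replicate 1 and 176 without replicate 2, and those at shared ERG numbered 36 and 72, against 98 to 113 without 1 ERG list. Fewer peaks enter there by construction. None of the 32 alternatives for tests passed 0.05 (Fisher's exact test, adjusted p 0.07828 to 1, the lowest for isolated against grouped regions without ERG replicate 2), and 22 kept the odds ratio on the same side of 1. The ratio of replicate 1 to replicate 2 regions turned to 0.952 at 50 kb, 0.851 at 500 kb, 0.841 to 0.992 without 1 ERG list and 0.867 with either ERG list. Isolated against grouped regions turned to 0.922 with either list and ranged from 0.677 to 2.12 without 1 ERG list. Wider against narrower replicate 2 peaks turned to 1.42 at 500 kb and 1.11 with either list, and ranged from 0.808 to 1.11 without 1 ERG list. The cause was not tested. Counting the X and Y pair once, chosen after seeing the data, turned no direction. No paired analysis was possible because replicate numbers of different factors do not mark shared cultures and the results are counts of regions. With 2 lists per factor the spread between cultures cannot be given, and signal tracks, which bear on an absent peak, were not used here.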

Other observations

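A window of 1000 bp was chosen after the positions were seen, and grouped regions were not searched. A further 14 isolated regions had a listed 25-base sequence within this window but not wholly inside the region. Of these, 10 overlapped a shared ERG region, beside 39.1% of all isolated regions and 40.5% of all p53 regions, and no test was made because the study picked the sequences. Besides CTNNB1, DRAP1, PSMD11, DHRS13 and OTUB1, they included a region of p53 replicate 2 alone at chr7:100271218-100271468, 115 bp from a sequence before the start of GNB2, a G protein β subunit gene. A replicate 1 region at chr17:61920046-61920252 stood 147 bp from a sequence 367 bp before the main annotated start of SMARCD2. That sequence also lay in an annotated exon of SMARCD2, which encodes a subunit of SWI/SNF chromatin remodelers. A replicate 1 region at chr13:111805919-111806180 overlapped part of a sequence found in a promoter of ARHGEF7, a guanine nucleotide exchange factor gene. In GENCODE this sequence lay in an ARHGEF7 intron, 38261 bp after the gene's main annotated start. It also lay in the promoter of LOC101060553 on the other strand. All 3 of these regions overlapped a shared ERG region. The region at chr7:56440254-56440754, the widest of replicate 1 with no ERG peak, stood 13 bp from a sequence with 40 matches in GRCh38, so the letters give it no gene.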
